A study of Homo sapiens with 3 samples.

Results

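Iron handling and ferroptosis defence were followed through 9 named genes in the human colorectal cancer line HCT-116 on 3 arrays with 1 array per condition. The members were FTL and FTH1 (ferritin chains), TFRC (the transferrin receptor), SLC11A2 (the iron transporter DMT1), SLC40A1 (the iron exporter ferroportin), NCOA4 (the ferritin autophagy receptor), IREB2 (the iron regulatory protein IRP2), GPX4 and AIFM2, and they were found by symbol among probe sets annotated to exactly 1 gene. Of the 9 genes, 7 were found, with 18 of the 41091 probe sets that carry 1 gene; the array names 19775 genes in all in this way. No such probe set was found for FTH1 or IREB2 in the annotation used here, and both were not analysed here. The conditions were SCD1-WT cells given the SCD1 inhibitor T-3764518 at 100 nM for 24 h, SCD1-KO cells, and SCD1-WT cells treated with DMSO for 24 h. The dose, and DMSO as the vehicle of the SCD1-KO cells, come from the paper, and the labels give no time for the SCD1-KO array. SCD1-KO cells carried a CRISPR-Cas9 deletion in SCD and were picked as clones, and the number of clones behind the array was not found in the sources used. Culture, RNA extract and array cannot be told apart from the condition, and no p-value was computed.

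Cells take up transferrin-bound iron through TFRC, SLC11A2 carries iron across membranes into the cytosol, ferritin stores it, NCOA4 delivers ferritin to lysosomes, and SLC40A1 exports it. When iron is low, the iron regulatory proteins bind iron-responsive elements (IREs), which blocks translation of ferritin mRNA and stabilises TFRC mRNA, so ferritin is set largely at translation, which an array does not read. Ferroptosis is an iron-dependent death by peroxidation of membrane lipids rich in polyunsaturated fatty acids; the monounsaturated fatty acids that SCD1 makes are known to oppose it. GPX4, a selenoenzyme, reduces lipid hydroperoxides with glutathione, and AIFM2 (FSP1) regenerates the antioxidant form of coenzyme Q without glutathione.

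The regulatory letters near the members that stood highest are shown first, from RefSeq on GRCh38.p14. Windows of 250 bases before a gene start were found for 8 of the 9 members. They were searched on both strands for TGACNNNGC, the core of the antioxidant response element (ARE) bound by NRF2, and for ACGTG, a core of the hypoxia response element, and no matches overlapped. The ARE core lay upstream of 1 member, AIFM2, and in 10.9% of all 35116 windows. ACGTG lay upstream of 3 members, FTL, TFRC and GPX4, and in 18.5% of all windows. A gene can have several windows: the 8 members had 15, of which 1 held the ARE core and 4 held ACGTG, and 2 of these 4 are overlapping GPX4 windows that share the same site. The AIFM2 window is chr10:70132826-70133075 on the minus strand, with the ARE core in capitals from position -22, counted from the start; the capitals read TGACTCAGC on the opposite strand.
AIFM2: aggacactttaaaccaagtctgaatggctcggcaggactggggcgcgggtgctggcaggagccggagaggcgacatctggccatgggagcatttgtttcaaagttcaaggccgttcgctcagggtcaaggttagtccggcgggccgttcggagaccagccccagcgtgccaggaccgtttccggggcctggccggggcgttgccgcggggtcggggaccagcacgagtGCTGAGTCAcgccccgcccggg
The TFRC window is chr3:196082091-196082340 on the minus strand, with ACGTG in capitals from position -88.
TFRC: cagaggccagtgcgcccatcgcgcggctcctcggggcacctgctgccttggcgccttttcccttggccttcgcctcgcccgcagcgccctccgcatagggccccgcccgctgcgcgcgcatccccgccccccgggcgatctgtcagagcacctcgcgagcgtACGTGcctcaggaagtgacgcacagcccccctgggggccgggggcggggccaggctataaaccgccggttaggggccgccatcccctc
The transcribed part of each window, 50 bases, was also searched for an IRE on the sense strand, together with the bases before the start. The search asked for a C, then 5 bases, the loop CAGTGN and 5 bases that pair with the first 5, with G-T pairs allowed. Among the members a match lay in FTL, and 37 of all 35116 windows (0.105%) held one. An IRE farther along a transcript could not be found by this search, and FTH1 had no window. The FTL match begins at base 33 of the transcript; it is shown with its flanks, chr19:48965337-48965358 on the plus strand, loop in capitals, since this element ties the ferritin message to iron.
FTL IRE: cttgcttcaaCAGTGTttggac
These matches are letters only, and no binding was measured.

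Signals are MAS5 values, on a linear scale with each array scaled to a like trimmed mean. The dimmer 50% of probe sets by mean log2 signal, those under a level of 56.6, were left out, and each gene was given the median over its remaining (kept) probe sets of the log2 ratio to DMSO. This kept 13 of the members' 18 probe sets and 6 of the 7 genes; SLC40A1 was the gene left out. As a measure of error, the SD of log2 ratios between probe sets of the same gene was pooled by quintile of signal, and it was 0.58 (T-3764518) and 0.60 (SCD1-KO) among the dimmest probe sets and 0.26 (T-3764518) and 0.25 (SCD1-KO) among the brightest. It does not cover differences between cultures.

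None of the 6 tested members reached a 2-fold difference from DMSO in either state. Over all 12321 tested genes, 5.49% did so under T-3764518 (2.18% higher, 3.30% lower) and 7.05% in the SCD1-KO cells (3.12% higher, 3.93% lower), so a count of 0 among 6 genes lies near that background. The split over all genes depended on scaling: under T-3764518 it was 269 higher and 407 lower as deposited, and 551 and 163 once the arrays were brought to the same median, which moved the median of all genes to 0.19. The median log2 ratio of the members was 0.18 under T-3764518 and -0.024 in the SCD1-KO cells, beside -0.087 and -0.011 over all tested genes. With T-3764518, 4 members stood above 0 and 2 below, while 41.0% of all tested genes stood above 0. In SCD1-KO cells, 3 stood above and 3 below, and 48.9% of all genes stood above. The highest members were AIFM2 in both states and TFRC under T-3764518.

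**Figure D1:**
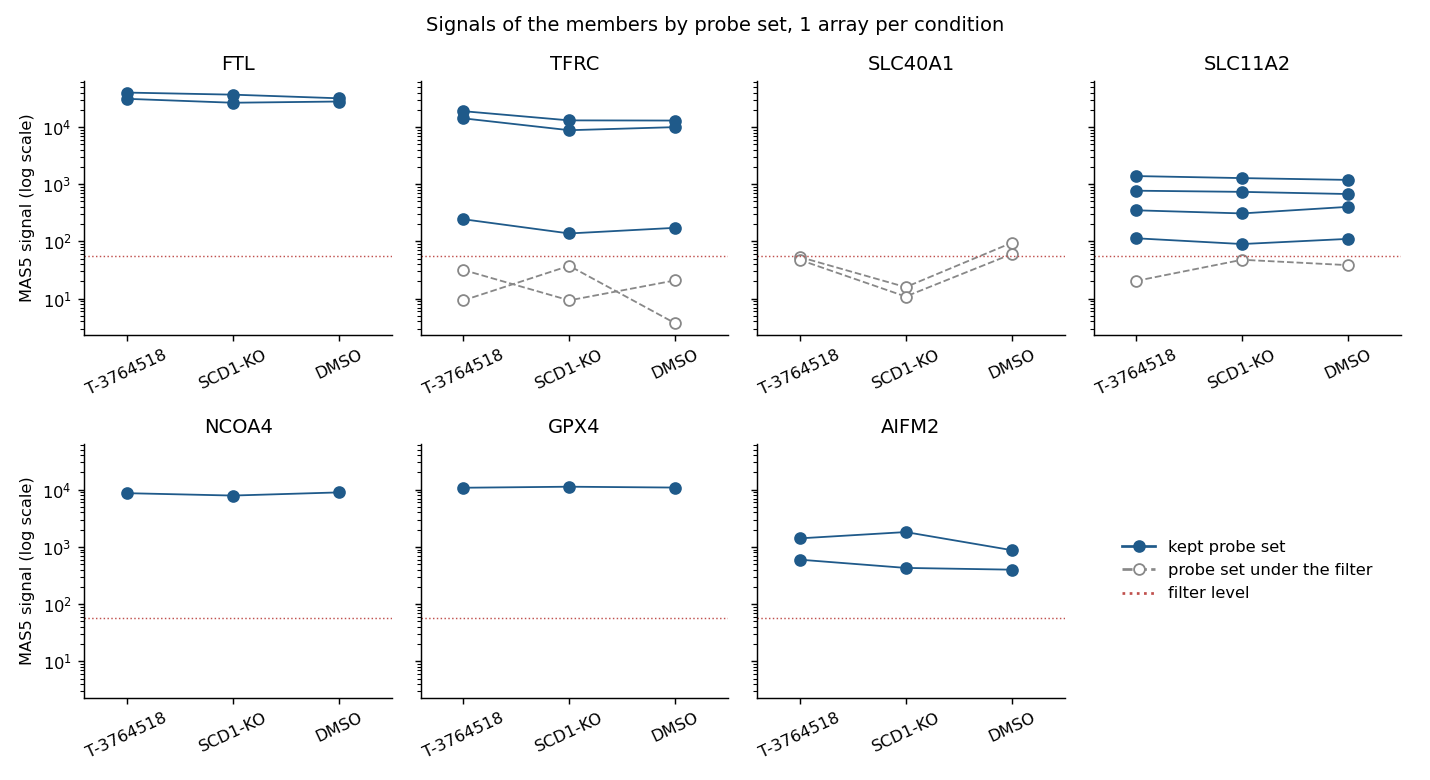
MAS5 signal (log axis) of each probe set of the 7 members found, on the T-3764518, SCD1-KO and DMSO arrays; each line joins 1 probe set, open points lie under the filter and the dotted line is the filter level of 56.6. The 3 kept TFRC probe sets are highest under T-3764518, and both SLC40A1 probe sets are lowest in the SCD1-KO cells, at 15.9 and 10.9.

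AIFM2 was read by 2 kept probe sets, which differed in the SCD1-KO cells. Probe set 224461_s_at had a signal of 1411 under T-3764518, 1818 in the SCD1-KO cells and 878 with DMSO. Probe set 228445_at had 599 under T-3764518, 430 in the SCD1-KO cells and 400.3 with DMSO. With T-3764518 both probe sets thus lay above DMSO by a like factor, at log2 ratios of 0.68 and 0.58, whereas in the SCD1-KO cells the first was 2.07-fold and the second 1.07-fold its DMSO level. The first was the 1 of 13 kept member probe sets past 2-fold. Over all 23192 kept probe sets, 3.56% were higher and 3.99% lower by 2-fold in the SCD1-KO cells (7.55% either way), and 2.46% higher and 3.83% lower under T-3764518 (6.29% either way). As a gene, AIFM2 had a log2 ratio of 0.63 under T-3764518 (SD between probe sets at its signal 0.32), and 5.81% of tested genes had a higher one. In SCD1-KO cells it was 0.58 (SD 0.32), with 10.2% of genes higher, but this median lies between probe sets at 1.05 and 0.10, which differ by more than that SD. Whether they read different transcripts was not tested.

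GPX4, which reduces lipid hydroperoxides, had 1 probe set, with signals of 10820 under T-3764518, 11276 in the SCD1-KO cells and 10898 with DMSO. Its log2 ratio was -0.010 under T-3764518 and 0.049 in the SCD1-KO cells, both within the SD of 0.26 and 0.25; after that same-median scaling they were 0.27 and 0.19. The 0.27 under T-3764518 is just past that SD. As deposited, the GPX4 message lay close to its DMSO level in both states.

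TFRC was higher under T-3764518 on each of its 3 kept probe sets. Probe set 208691_at had a signal of 18918 under T-3764518, 13054 in the SCD1-KO cells and 12965 with DMSO. Probe set 207332_s_at had 14184 under T-3764518, 8789 in the SCD1-KO cells and 9949 with DMSO. On both, the T-3764518 array stood alone at the top and the other arrays lay close together. The dimmer 237215_s_at had 245 under T-3764518, 138 in the SCD1-KO cells and 173 with DMSO. The 3 probe sets gave 1.46-fold, 1.43-fold and 1.42-fold their DMSO level under T-3764518, and 1.01-fold, 0.883-fold and 0.797-fold in the SCD1-KO cells. As a gene, TFRC had a log2 ratio of 0.51 under T-3764518 (SD between probe sets at its signal 0.31), with 8.38% of tested genes higher, and of -0.18 in the SCD1-KO cells (SD 0.31), with 65.6% higher. Set directly against SCD1-KO cells, without the DMSO array, TFRC under T-3764518 was 1.61-fold (log2 ratio 0.69), and 6.80% of tested genes had a higher ratio. A further 2 TFRC probe sets, at signals of 3.70 to 37.5, lay under the filter; both were above DMSO under T-3764518 and they lay on opposite sides of it in the SCD1-KO cells.

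SLC11A2, which brings iron into the cytosol, had 4 kept probe sets with ratios on both sides of 0. Its brightest, 203124_s_at, had a signal of 1389 under T-3764518, 1280 in the SCD1-KO cells and 1190 with DMSO. The 4 log2 ratios ran between -0.20 and 0.22 under T-3764518 and between -0.38 and 0.13 in the SCD1-KO cells, and the gene's values were 0.11 (SD 0.39) and -0.097 (SD 0.40). As deposited, no difference from DMSO beyond the spread of probe sets was seen for this transporter. Same-median scaling gave 0.393 under T-3764518, barely past its SD of 0.387, and 0.043 in the SCD1-KO cells.

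FTL, the ferritin light chain, had 2 kept probe sets, both marked _x_at, which can also bind related transcripts, and ferritin has many pseudogenes. Probe set 212788_x_at had a signal of 39961 under T-3764518, 36756 in the SCD1-KO cells and 31746 with DMSO. Probe set 213187_x_at had 31096 under T-3764518, 26548 in the SCD1-KO cells and 27886 with DMSO. The T-3764518 array was highest on both, and SCD1-KO and DMSO changed order between them. The gene's log2 ratio was 0.24 under T-3764518 (1.18-fold, SD 0.26, 19.6% of genes higher) and 0.070 in the SCD1-KO cells (1.05-fold, SD 0.25), each within its SD. After the same-median scaling, FTL stood at 0.52 under T-3764518, past its SD, and at 0.21 in the SCD1-KO cells. NCOA4, which carries ferritin to the lysosome, had 1 probe set with signals of 8697 under T-3764518, 7900.5 in the SCD1-KO cells and 8971 with DMSO, or log2 ratios of -0.045 and -0.18, also within the SD.

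**Figure D2:**
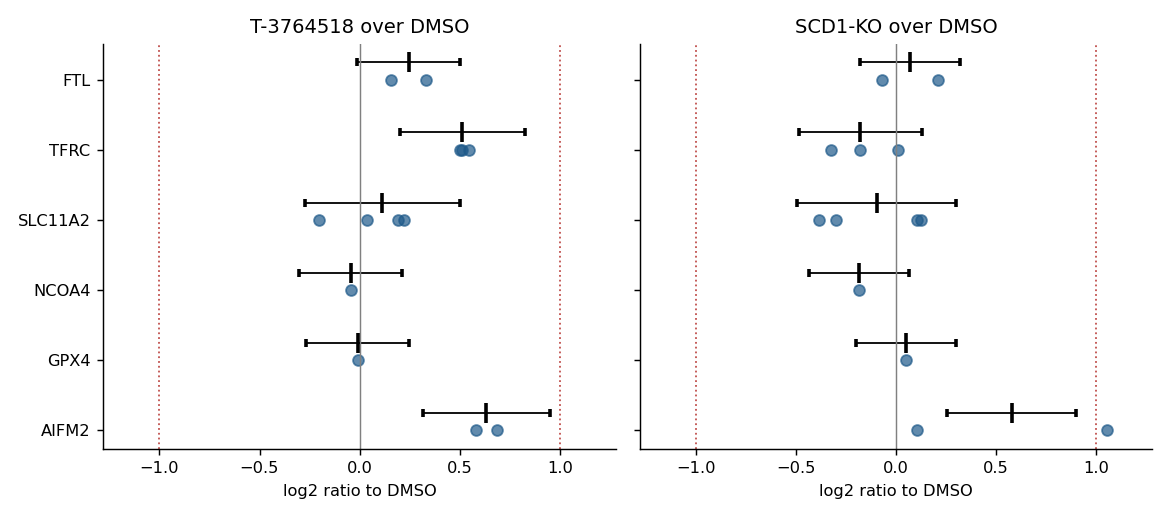
Log2 ratios to DMSO of the kept probe sets (points) of the 6 tested members, under T-3764518 on the left and SCD1-KO cells on the right; the black mark is the gene's median and its bar 1 SD between probe sets of any gene at that signal, and the dotted lines are 2-fold. AIFM2 (0.63) and TFRC (0.51) lie farthest right under T-3764518, and the AIFM2 probe sets part in the SCD1-KO cells (1.05 and 0.10).

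SLC40A1, the iron exporter, was read by 2 probe sets too dim for the filter. Probe set 223044_at had a signal of 53.6 under T-3764518, 15.9 in the SCD1-KO cells and 94.7 with DMSO, and 233123_at had 47.8 under T-3764518, 10.9 in the SCD1-KO cells and 60.3 with DMSO. On both, DMSO was highest and SCD1-KO lowest. With signals under 56.6 raised to that level, the first was at least 1.67-fold lower and the second at least 1.07-fold lower in the SCD1-KO cells, and the same bounds hold for T-3764518. Without the filter, the gene's log2 ratio was -0.58 under T-3764518 and -2.52 in the SCD1-KO cells, on signals whose detection was not assessed here.

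In order of their log2 ratios, the members under T-3764518 ran AIFM2 (0.63), TFRC (0.51), FTL (0.24), SLC11A2 (0.11), GPX4 (-0.010) and NCOA4 (-0.045), and each differed from its neighbour by less than the larger of their SDs between probe sets. In SCD1-KO cells the order was AIFM2 (0.58), FTL (0.070), GPX4 (0.049), SLC11A2 (-0.097), TFRC (-0.18) and NCOA4 (-0.18), and the step from AIFM2 to FTL was the one that passed that SD. That step rests on 224461_s_at (1.05), since the other AIFM2 probe set, 228445_at, stood at 0.10, close to FTL. The ratios share the DMSO array. AIFM2 lay farthest from 0 over both ratios, and the genes nearest to it by Euclidean distance over these 2 values were TINAGL1, RNF6, KLF6, AGAP9 and ZNF281, at 0.0045 to 0.034 on the log2 scale. Likeness over 2 ratios is a weak measure, and 54 genes lay within 0.1 of it.

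**Figure D3:**
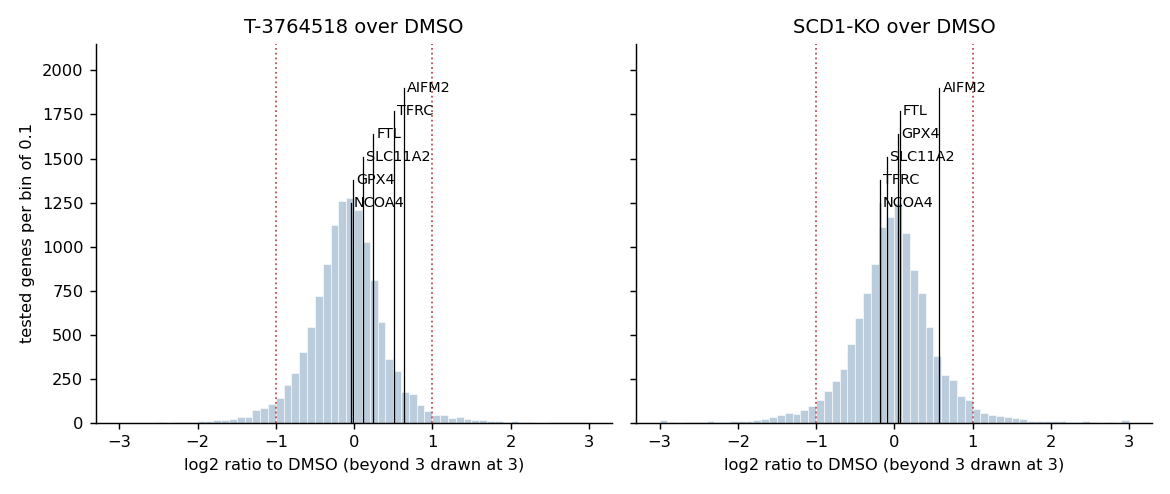
Number of tested genes per bin of 0.1 in the log2 ratio to DMSO (x axis) for T-3764518 and SCD1-KO cells, with the 6 tested members as vertical lines and 2-fold as dotted lines; line heights only separate the names. All members lie inside 2-fold, with AIFM2 and TFRC in the right flank for T-3764518 and AIFM2 alone there in the SCD1-KO cells.

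The surrounding pathway was described with 9 lists holding 123 tested genes other than the members. These lists were chosen with earlier results of these data known, so their shares describe the lists and do not test enrichment. With T-3764518, 10 of the 123 were at least 2-fold higher and 0 lower (8.13% and 0%, against 2.18% and 3.30% of all genes); in the SCD1-KO cells 8 were higher and 8 lower (6.50% each, against 3.12% and 3.93%). With signals under 56.6 raised to that level, the counts in the SCD1-KO cells were 7 higher and 6 lower. The median log2 ratio over these genes was 0.0018 under T-3764518 and 0.021 in the SCD1-KO cells. The same all-gene shares apply to each list below, where a single called gene is too few to set apart from them. Both ratios share the DMSO array, and the share of all genes higher in both states at once was not counted.

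Genes of cystine uptake and glutathione stood highest. Of 12 tested, 5 were at least 2-fold higher under T-3764518 and 4 in the SCD1-KO cells, with none lower, and the list's median log2 ratios were 0.59 and 0.42. In the SCD1-KO cells GCLC was called at a log2 ratio of 1.05, and it was under 2-fold with dim signals raised to 56.6 (0.92), from the brightest probe set (0.92), with the filter at percentile 75 (0.98) and with the offset (0.96). SLC7A11 and SLC3A2 form the cystine importer: SLC7A11 had a geometric mean signal of 3782 under T-3764518, 3820 in the SCD1-KO cells and 1105 with DMSO (3.34-fold in both), and SLC3A2 was 2.07-fold and 1.79-fold. GCLC and GCLM, which start glutathione synthesis, were 3.33-fold and 3.10-fold under T-3764518 and at least 1.90-fold and 2.32-fold in the SCD1-KO cells. CHAC1, which degrades glutathione, was 2.55-fold and 2.42-fold, so the genes that stood out both make and consume it, whereas GSS, the second enzyme of synthesis, had log2 ratios of 0.0018 and -0.058.

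Among genes of heme, 1 of 15 was higher in both states, beside 2.18% (T-3764518) and 3.12% (SCD1-KO) of all tested genes. HMOX1, which opens the heme ring and frees its iron, had a signal of 4183 under T-3764518, 4636 in the SCD1-KO cells and 543 with DMSO. CPOX, an enzyme of heme synthesis, had 13148 under T-3764518, 9436 in the SCD1-KO cells and 21057 with DMSO, 2.23-fold lower in the SCD1-KO cells and 1.60-fold lower under T-3764518. The list's median log2 ratios were 0.050 and 0.19.

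The other genes of iron uptake, export and storage had medians of -0.24 and -0.086, with none lower by 2-fold. Of 14, 1 was higher in both states, beside 2.18% (T-3764518) and 3.12% (SCD1-KO) of all tested genes. It was LCN2, a secreted protein that binds iron-carrying siderophores, with a signal of 515 under T-3764518, 553 in the SCD1-KO cells and 153 with DMSO (3.36-fold and 3.61-fold). Of 12 genes of iron sensing, none passed 2-fold under T-3764518 and TMPRSS6, a protease that curbs hepcidin in hepatocytes, was 2.17-fold lower in the SCD1-KO cells, on signals of 136 under T-3764518, 67.4 in the SCD1-KO cells and 146 with DMSO. TMPRSS6 was under 2-fold after same-median scaling (-0.97) and with an offset added to each signal (-0.95). Of the genes that act with IREB2, ACO1 (IRP1) had log2 ratios of -0.11 and 0.12, and FBXL5, which marks IRP2 for degradation, 0.11 and 0.57. None of 14 genes of iron-sulfur cluster assembly passed 2-fold, the farthest over both ratios together being FDX1, a ferredoxin, at log2 ratios of 0.30 and 0.70, and FDX2 at -0.41 and 0.58 (medians -0.086 and -0.097).

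GPX4 and TXNRD1 are selenoproteins. Of 11 genes of selenoprotein synthesis and its products, 1 was higher in both states, beside 2.18% (T-3764518) and 3.12% (SCD1-KO) of all genes. It was TXNRD1, the thioredoxin reductase, at 2.69-fold and 2.46-fold. SELENOP, a secreted selenium carrier, had a signal of 1226 under T-3764518, 439.5 in the SCD1-KO cells and 1523 with DMSO, 3.46-fold lower in the SCD1-KO cells and 0.805-fold under T-3764518. The list's median log2 ratios were -0.042 and 0.20.

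AIFM2 belongs with the genes that act beside GPX4. Of 19 others tested, 1 was higher in each state and 2 were lower in the SCD1-KO cells, with medians of -0.078 and -0.25. The higher one was DHCR7, an enzyme of cholesterol synthesis that consumes the sterol 7-dehydrocholesterol, at 4.30-fold and 2.90-fold. A higher DHCR7 message is not read here as more defence, and no effect on ferroptosis was measured. DHODH, a mitochondrial enzyme of pyrimidine synthesis that reduces coenzyme Q, had a geometric mean signal of 154 under T-3764518, 98.6 in the SCD1-KO cells and 215 with DMSO (2.40-fold lower in the SCD1-KO cells, but a log2 ratio of -0.72 from the brightest of its probe sets, short of 2-fold), and MBOAT1, a phospholipid acyltransferase, was 2.24-fold lower there. With T-3764518 these were 0.793-fold and 0.802-fold.

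Of 11 genes that promote or mark lipid peroxidation, none passed 2-fold under T-3764518, and 1 was lower in the SCD1-KO cells (medians 0.044 and 0.057). It was PTGS2, a cyclooxygenase, with signals of 118 under T-3764518, 30.6 in the SCD1-KO cells and 96.6 with DMSO, at least 1.71-fold lower in the SCD1-KO cells, so that its call ends with dim signals raised to 56.6. ACSL4, which loads polyunsaturated fatty acids into membranes, was 1.89-fold and 1.65-fold. Of 15 regulators of ferroptosis and ferritin, HSPA5, an ER chaperone, was 2.18-fold higher under T-3764518 and 1.22-fold in the SCD1-KO cells (medians 0.19 and 0.15), and its brightest probe set alone stood at a log2 ratio of 0.82 under T-3764518, short of 2-fold. TFAP2C, a transcription factor, and PROM2, a membrane protein tied to ferritin export, were lower in the SCD1-KO cells, by log2 ratios of -1.37 and -1.25, but their probe sets spread between -2.22 and -0.52 and between -3.62 and -0.21; with dim signals raised to 56.6, TFAP2C was at least 1.82-fold lower, and without _s_at, _x_at and _a_at probe sets both genes were under 2-fold, at -0.52 and -0.21.

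**Figure D4:**
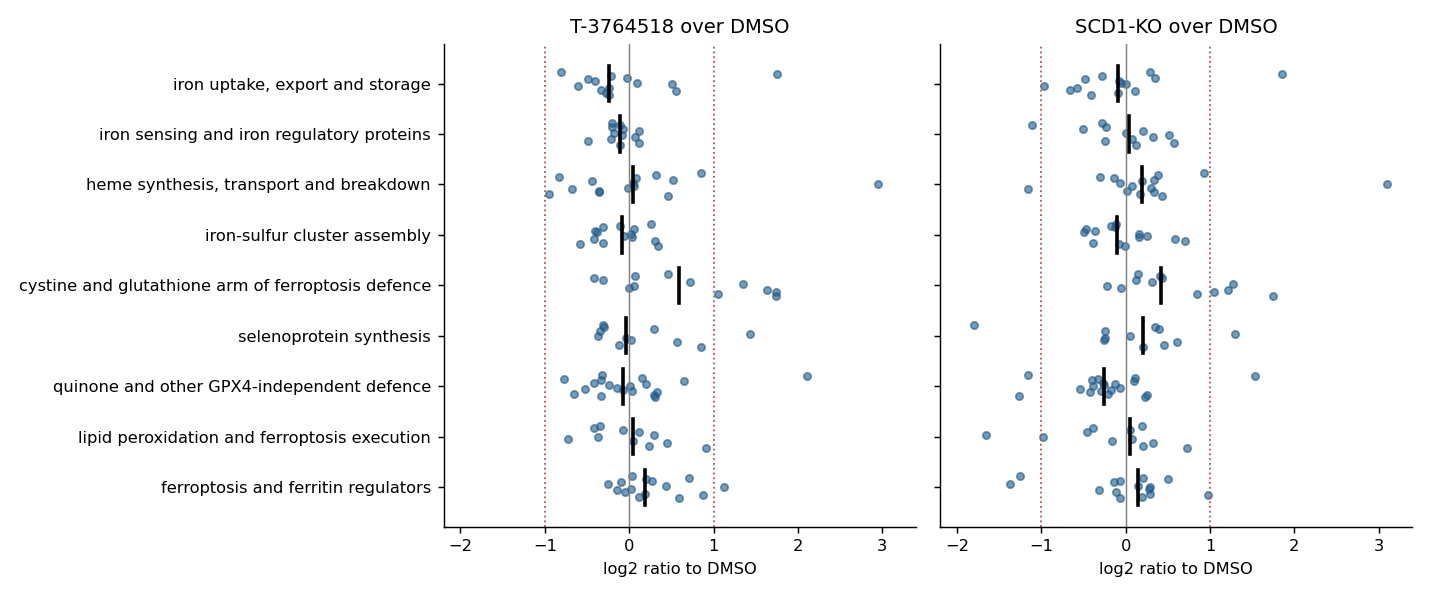
Log2 ratios to DMSO of the tested genes (points) in 9 lists of iron and ferroptosis genes other than the members, for T-3764518 and SCD1-KO cells; black bars are list medians and dotted lines are 2-fold. The cystine and glutathione list has the highest median in each panel (0.59 and 0.42), and HMOX1 is the farthest point to the right.

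The median signal over all probe sets was 56.7 under T-3764518, 62.4 in the SCD1-KO cells and 68.8 with DMSO. As a sign of RNA quality, the 3′ signal of GAPDH was 0.927 times its 5′ signal under T-3764518, 1.07 times in the SCD1-KO cells and 0.969 times with DMSO; for ACTB the same ratio was 1.36 under T-3764518, 1.54 in the SCD1-KO cells and 1.30 with DMSO. Of 10 tested housekeeping genes, none passed 2-fold (farthest PGK1, at log2 ratios of -0.39 and -0.81, and SDHA, at -0.51 and -0.19). Of 10 epithelial colon markers, 8 were at or above 56.6 on all arrays, but in the SCD1-KO cells CDH1 was 2.78-fold and EPCAM 2.46-fold lower and KRT20 3.70-fold higher. The summed signal of that list was 91781 under T-3764518, 78763 in the SCD1-KO cells and 83189 with DMSO. Of 6 leukocyte and macrophage markers, 3 lay under 56.6 on all arrays and their sum was 281 under T-3764518, 602 in the SCD1-KO cells and 286 with DMSO, most of the KO value being LYZ, a lysozyme (brightest probe set 45.1 under T-3764518, 446 in the SCD1-KO cells, 22.7 with DMSO). PTPRC, the pan-leukocyte marker CD45, had 17.3 under T-3764518, 20.7 in the SCD1-KO cells and 24.5 with DMSO. Sums of fibroblast, erythroid and hepatocyte markers lay between 253 and 1650 on all arrays. The part of these differences in the members' values was not tested.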

How the data were processed

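Total RNA of 3 HCT-116 samples was hybridised to the Human Genome U133 Plus 2.0 Array at a service laboratory. The authors deposited linear signal intensity values, 1 per probe set; the submitters' processing notes name MAS5 (version: not given in the sources used here). With 2% trimmed off each end, the mean was 500.1 on every array. Names came from the platform's annotation: 41097 probe sets carry 1 symbol, 1801 several and 11777 are not listed; 41043 were matched by gene ID to RefSeq. Control probe sets (62) were left out.

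Signals were taken to log2, kept at percentile 50 of mean signal, and set as ratios to DMSO, with the median over kept probe sets per gene, in Python 3.11.15, numpy 2.4.6, pandas 2.3.3, statsmodels 0.14.6 and matplotlib 3.10.9. The calculation of the ratios was run on simulated data, with planted changes larger than 2-fold and noise set by the SD between probe sets. Differences between cultures or arrays were not simulated. That run therefore checks the calculation only and does not measure the precision of the members' ratios, which were smaller. With 1 array per condition no test was run and the number of arrays limits the precision; differences of 2-fold were counted. The members and lists were chosen with earlier results of these data known. Named were all members, per list up to 6 genes past 2-fold (or the 2 farthest from 0), and the 5 genes nearest to the member farthest from 0; ACO1, FBXL5, GSS and ACSL4 were added after their values were seen. Alternatives were 3 other scalings, 2 other filters, an offset of 16.5, 2 other gene summaries, no _s_at, _x_at or _a_at probe sets, and thresholds of 1.5-fold and 3-fold; raising signals under 56.6 to that level was added after the data were seen.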

Additional observations from a re-analysis of the deposited data

How the results depend on the processing

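Over 11 settings, AIFM2 stayed above its DMSO level in both states (log2 0.58 to 0.91 under T-3764518, 0.10 to 1.05 in the SCD1-KO cells) and TFRC under T-3764518 (0.51 to 0.79). All settings reuse the same arrays. Every probe set of these genes already lay above DMSO in those states as deposited, so another filter or gene summary could not change these signs. AIFM2 in the SCD1-KO cells passed 2-fold from the brightest probe set alone, at 1.05, and was 0.10 without _s_at, _x_at and _a_at probe sets. The signs of TFRC in the SCD1-KO cells (-0.18 to 0.01), of SLC11A2 in the SCD1-KO cells (-0.30 to 0.12), and of GPX4 (-0.054 to 0.27) and NCOA4 (-0.085 to 0.23) under T-3764518 changed with the setting. No other setting took a member past 2-fold, apart from SLC40A1 in the SCD1-KO cells without the filter (-2.52). The median of the tested members ran between 0.035 and 0.46 under T-3764518 and between -0.032 and 0.12 in the SCD1-KO cells.

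Scaling to the same median moved the median of all genes under T-3764518 to 0.19 from -0.087, and the members moved with it. It turned the split of calls from 269 higher and 407 lower to 551 and 163; quantile normalization gave 356 and 265, lowess 364 and 243, and the filter at percentile 75 gave 150 and 69. In SCD1-KO cells the split was 385 and 484, and 571 and 365 at the same median. Without the filter, the list genes past 2-fold under T-3764518 were 19 (16 higher and 3 lower), against 10, all higher. All genes past 2-fold were then 4550 under T-3764518 and 4771 in the SCD1-KO cells, against 676 and 869, since dim genes enter. Without _s_at, _x_at and _a_at probe sets, 8 of 92 tested list genes were higher and 1 lower under T-3764518. With the filter at percentile 75, the list count in the SCD1-KO cells was 8, against 16, and all genes 219 and 324. At 1.5-fold the list counts were 26 and 25 and all genes 2332 and 2635; at 3-fold they were 6 and 5, and 154 and 241. Of the other 972 comparisons of single genes and list counts, 881 stayed within their spread or within 1.5 times and 91 did not. A reversal was scored only for single genes at least 2-fold from DMSO in the main setting, and 0 of them changed sign. Such a change needs a shift of more than 2-fold between settings, so this count says little about stability. Members were all under 2-fold in the main setting and could not be scored, and the signs of some changed as given above. No paired analysis was possible because each condition has 1 array. Dim signals limit SLC40A1, and probe-set disagreement limits AIFM2 in the SCD1-KO cells.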
